A study of Gallus gallus with 45 samples.

Results

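The genes described here encode ribosomal proteins and the factors that start, drive and regulate translation. Members were all genes whose symbol begins with RPL or RPS and a digit, or with EIF or EEF, apart from the RPS6K kinases and EIF2AK2. This rule, which uses names only, found 61 of the 4655 genes with a symbol on the array, measured by 144 of 43603 probes. Of these, 32 carried RPL or RPS names (20 RPL and 12 RPS) and are called ribosomal proteins here. The other 29 carried EIF or EEF names and are called translation factors here, with 2 kinases and 2 methyltransferases among them. RPL7L1, a relative of RPL7, and RPS19BP1, a protein that binds RPS19, fall under the naming rule without being standard parts of the ribosome. EEF1A1, EEF1D, EEF1G, EIF4E, the EIF4EBP genes, EIF2AK4 and EEF2K were not matched to a probe and were not analysed here. One value per gene was used, the mean of its probes on a log2 scale, and 60 members passed a filter on dim probes.

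Whole jejunum of the broiler lines Y and X, which are genetically divergent, was taken at days 0, 4, and 16 after hatch. Each of 45 one-colour arrays held RNA of 1 pool of 10 birds, and the lines were reared together in time but in separate pens, with unrestricted feed and water. There were 7 pools of line Y and 7 of line X for day 0, 7 of line Y and 8 of line X for day 4, and 8 of each for day 16. Labels of the line Y day 0 pools disagree, since their titles give 4 days and their age field 0 days, and they were taken as day 0. The arrays of each group lay on a slide of their own, so that slide and group, and pen and line, cannot be told apart. In whole tissue, fewer cells of a type and less RNA per cell cannot be told apart either. Pools stand for populations of birds, and p-values set a difference between groups against the spread between pools within groups. That spread holds no variation between slides.

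Translation begins when eIF2, loaded with the initiator tRNA, and the large scaffold eIF3 assemble on the small ribosomal subunit, and the helicase eIF4A opens the messenger RNA so that the start codon can be found. Kinases that phosphorylate eIF2 slow this step, eIF6 keeps the subunits apart until needed, and the elongation factors eEF1 and eEF2 bring in tRNAs and move the ribosome along. Ribosomal protein transcripts are among the most abundant of a tissue, and the intestinal epithelium, which renews itself continuously, makes much protein.

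Abundance set a limit to what the arrays could show for the ribosomal proteins. A saturated spot has reached the top of the scanner's range and gives only a lower bound of its signal. At least 1 spot was saturated for 29 of the 32 ribosomal proteins, against 4 of the 29 translation factors, which were EIF3E, EIF1, EIF4A2 and EEF2. The ribosomal proteins never saturated were RPL37A and, not standard parts of the ribosome, RPL7L1 and RPS19BP1. Of all values of member probes 26.1% were saturated, against 0.726% over all probes of the array. RPL35, RPL36, RPS15 and RPS3 were among those saturated in every probe on every array. Only 8 ribosomal proteins had at least 1 probe without a saturated spot. The highest deposited log2 value was 16.0, and RPS3 stood at 16.00 in every pool of both lines.

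Saturation differed between groups. Per array, between 48 and 56 of the 144 member probes were saturated in line Y at day 0 (median 54) and between 39 and 48 in line X at day 0 (median 45). The counts were 23 to 43 (median 40) in line Y and 25 to 42 (median 36) in line X at day 4. At day 16 they were 18 to 41 (median 24.5) in line Y and 18 to 44 (median 34.5) in line X. Median raw intensity of the arrays was 197 to 262 in line Y and 140 to 173.5 in line X at day 0, and 110 to 183 in line Y and 78 to 170 in line X at day 16. By the medians, 256 against 150 at day 0 and 147.5 against 126 at day 16, line Y thus had the brighter arrays on both days but more saturated member spots at day 0 and, by the median, fewer at day 16. Small log2 differences of bright ribosomal proteins near 16 therefore have no reading as the absence of a difference.

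**Figure D1:**
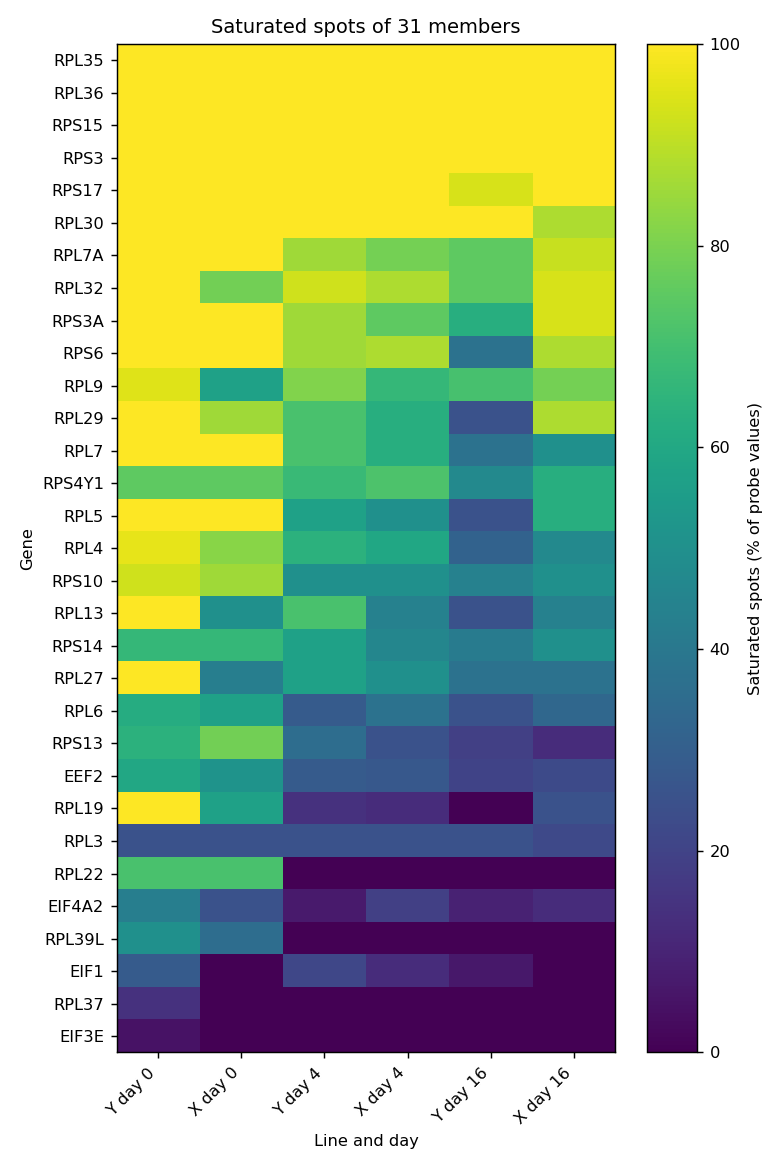
Share of probe values with a saturated spot (percent, colour) for 31 members with any, in the 6 groups of line and day. The genes at the top, such as RPL35 and RPS3, are saturated on every array, and the share is highest at day 0.

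At hatch few members were called between the lines. Of 60 members 9 were higher in line Y and 1 was lower in line Y, relative to line X, at day 0, at an adjusted p under 0.05 (limma, Benjamini-Hochberg) and a fold change over 1.3. Among all 21443 features tested, 18.2% were higher and 19.3% lower (37.6% called in either direction). The 10 of 60 members stood below that background, a difference that was not tested. Of the 27 members tested with no saturated spot, 6 were higher and 1 lower (22.2% and 3.7%). Of the 33 with a saturated spot, 3 were higher and 0 lower. The median log2 difference was 0.01 over the members and -0.03 over all features. The higher members were the large subunit genes RPL37 and RPL13, RPL7L1, the eIF3 subunits EIF3L, EIF3H and EIF3M, the eIF2 subunits EIF2S1 and EIF2S2, and the helicase EIF4A2. Scaling each array to its 75th percentile in place of quantile normalization turned the balance to 7 higher and 24 lower, of which 23 were ribosomal proteins. A saturated spot has a capped signal, so its scaled value falls as the 75th percentile of its array rises. All counts under this scaling carry that limit, except those on never saturated probes. The part of this limit in the turned balance was not tested. With probes that never saturated, which 36 members have, the counts were 8 higher and 1 lower under the deposited normalization and 6 higher and 1 lower under the scaling. With the brightest probe of each gene they were 3 higher and 3 lower.

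RPL37, a protein of the large subunit, had the largest difference. Its log2 values were 9.64, 9.93 and 10.27 (lowest, median and highest pool) in line Y at day 0, against 7.02, 7.58 and 7.84 in line X. All pools of line Y lay above all pools of line X. The difference was 2.44 ± 0.14 (SE), or 5.42-fold (adjusted p = 4.16e-19, limma), and 1 of its 3 probes was not well above background in line X at days 0 and 4. The probe with the largest difference was also dim in line X on these days, near the dark corner spots used to filter dim probes. RPL13, also of the large subunit, measured 15.98, 16.00 and 16.00 in line Y and 14.69, 14.80 and 15.02 in line X, again without overlap. The difference of the probe means was 1.16, or 2.23-fold (adjusted p = 2.36e-21, limma). It is no strict bound, since both probes were saturated in line Y at day 0 and 1 of them in line X as well. For the other probe the difference was at least 4.98-fold.

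RPL7L1, the relative of RPL7, had 9.78, 10.57 and 11.06 in line Y and 8.66, 9.38 and 9.77 in line X at day 0. The line Y pools were higher throughout, by 1.14 ± 0.18 (SE) or 2.21-fold (adjusted p = 1.45e-06, limma). EIF3L, a subunit of eIF3, had 12.05, 12.38 and 12.55 in line Y and 10.99, 11.31 and 11.80 in line X, a 2.06-fold difference without overlap (adjusted p = 9.18e-12). EIF4A2, a helicase of the cap-binding complex, had 14.63, 14.83 and 14.88 in line Y and 13.92, 13.96 and 14.08 in line X, which is 1.76-fold (adjusted p = 1.92e-15). EIF4A3, a relative of EIF4A2 that marks spliced exon junctions, was the member that ran the other way. It had 13.96, 14.07 and 14.53 in line Y and 14.58, 14.68 and 14.73 in line X, so that every line Y pool was below every line X pool, by 1.41-fold (adjusted p = 0.000265).

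**Figure D2:**
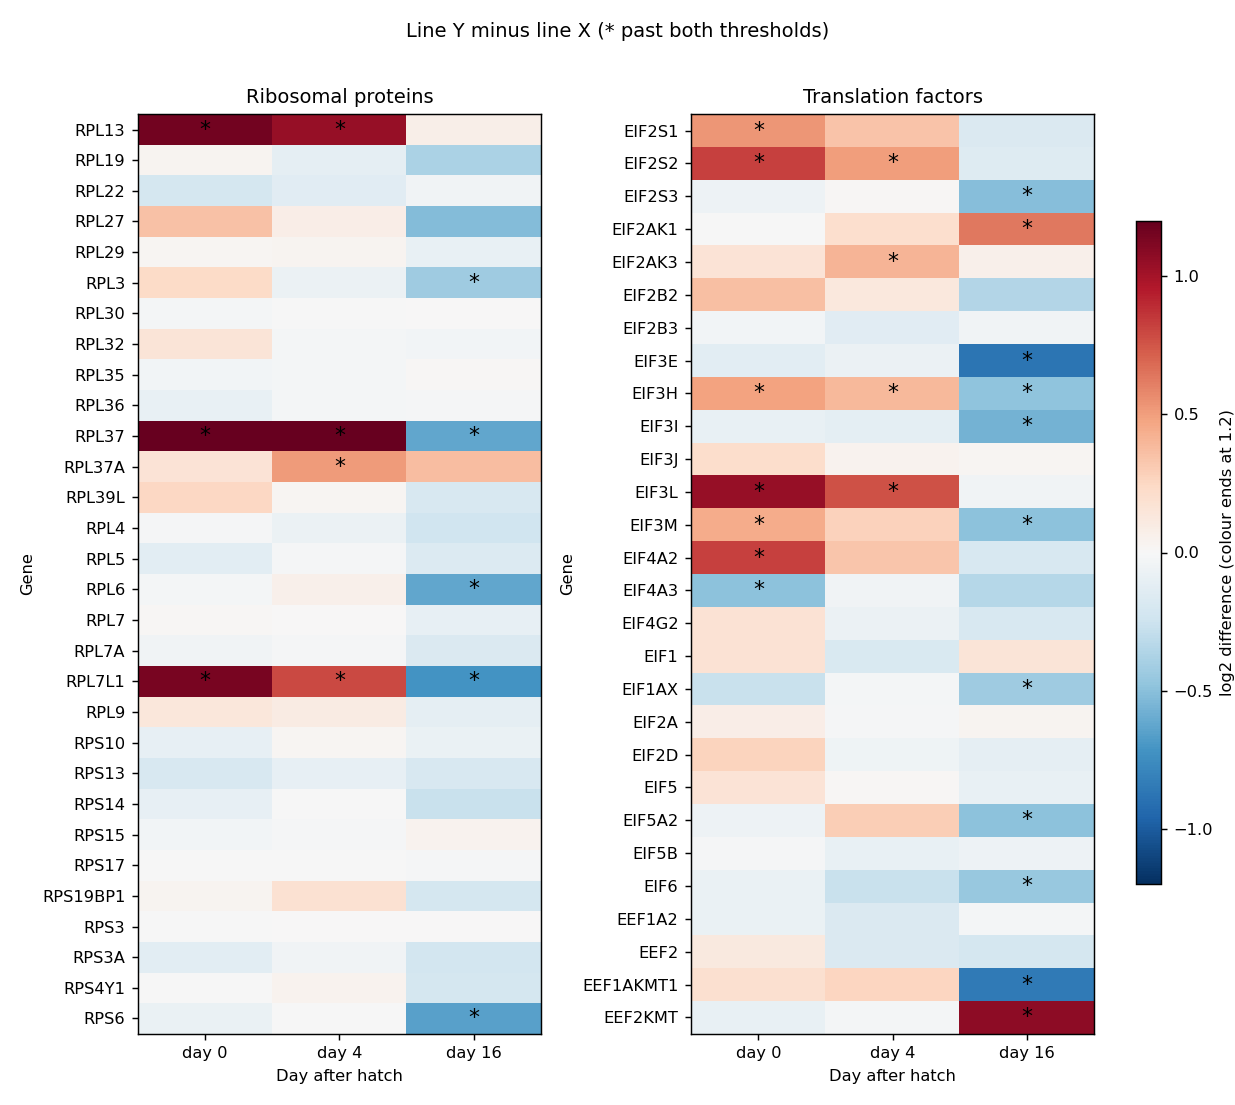
Log2 difference of line Y minus line X for 58 members tested at days 0, 4, and 16 (colour, which ends at 1.2), with a star where both thresholds were passed. Stars at days 0 and 4 are nearly all on members higher in line Y, and 14 of the 16 stars at day 16 are on members lower in line Y.

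At day 4, 9 members were again higher in line Y and 0 were lower (limma), where 15 were higher and 3 lower at an unadjusted p under 0.05. Over all features 12.1% were higher and 11% lower (23.2% in either direction). The split was 7 higher and 0 lower under the 75th percentile scaling and 8 higher and 2 lower on never saturated probes. Members called on both days were RPL37, RPL13, RPL7L1, EIF3L, EIF2S2 and EIF3H. RPL37 was 3.58-fold higher in line Y (adjusted p = 3.71e-15) and RPL13 2.07-fold (adjusted p = 7.83e-20, limma). RPL37A and EIF2AK3, the kinase of eIF2 that answers stress in the endoplasmic reticulum, were called between lines at day 4 only. EIF2AK3, with only 1 probe above background, had 10.28, 10.59 and 10.79 in line Y and 9.89, 10.14 and 10.29 in line X, with an overlap at the edge and a difference of 1.33-fold (adjusted p = 4.07e-05). It fell short of the fold threshold without line X pool 10 or without line Y pool 12, at differences between 0.37 and 0.45 over all pools left out in turn, and under the 75th percentile scaling at 0.34.

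For most of these genes a single probe carried the difference of days 0 and 4. Of the 9 members higher at day 0, 8 had at least 2 probes above background, 5 of them had a probe of opposite sign and 5 had no second probe called. One of 4 probes of EIF4A2 differed by 3.02 (8.13-fold), while its other 3 lay between -0.07 and 0.19. That probe read 13.98, 14.31 and 14.51 in line Y at day 0 and 10.70, 11.27 and 11.61 in line X, and in line X it had reached 13.50, 13.75 and 14.35 by day 16. One probe of RPL13 differed by 2.32 (at least 4.98-fold), the other, saturated on every array of both lines at day 0, by -0.00. For RPL7L1 the 2 probes gave 2.48 and -0.20, for EIF3M 1.11 and -0.22, and for EIF2S2 1 probe gave 2.12 and the others 0.13 and 0.21. The 2 probes that passed the filter agreed in sign for RPL37 (3.60 and 1.58) and EIF3L (1.60 and 0.49) at day 0. At day 4 the second probes of both were close to 0 and not called, with 3.66 and 0.09 for RPL37 and 1.43 and 0.09 for EIF3L. Of the 9 members higher at day 4, 7 had at least 2 probes above background and 6 of these had no second probe called.

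Probes of RPL37, EIF2S2 and RPL13 that carried the difference were highest at day 16 in line X. On days 0, 4, and 16 in turn, the RPL37 probe read 4.59, 5.09 and 5.45, then 4.58, 5.37 and 5.54, and lastly 7.99, 8.45 and 8.86 in line X. At days 0 and 4 it thus lay near the brightest dark corner spot of an array, which had a median of 5.37. The EIF2S2 probe read 6.14, 6.40 and 6.79, then 7.29, 7.57 and 7.65, and lastly 8.51, 8.85 and 9.16. The RPL13 probe read 13.38, 13.60 and 14.05, then 13.36, 13.92 and 14.07, and lastly 15.21, 15.56 and 15.81 in the same order of days. All 3 probes were higher at day 16, with no overlap between day 16 and either earlier day. Their course before that differed, since the EIF2S2 probe had already risen by 1.11 between days 0 and 4 without overlap, whereas the RPL37 probe differed by 0.19 and was not called. The EIF3M probe read 11.68, 11.77 and 12.14, then 11.27, 11.45 and 11.66, and lastly 11.94, 12.22 and 12.66, and was thus lowest at day 4. Whether probe sequence or slide plays a part was not tested.

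**Figure D3:**
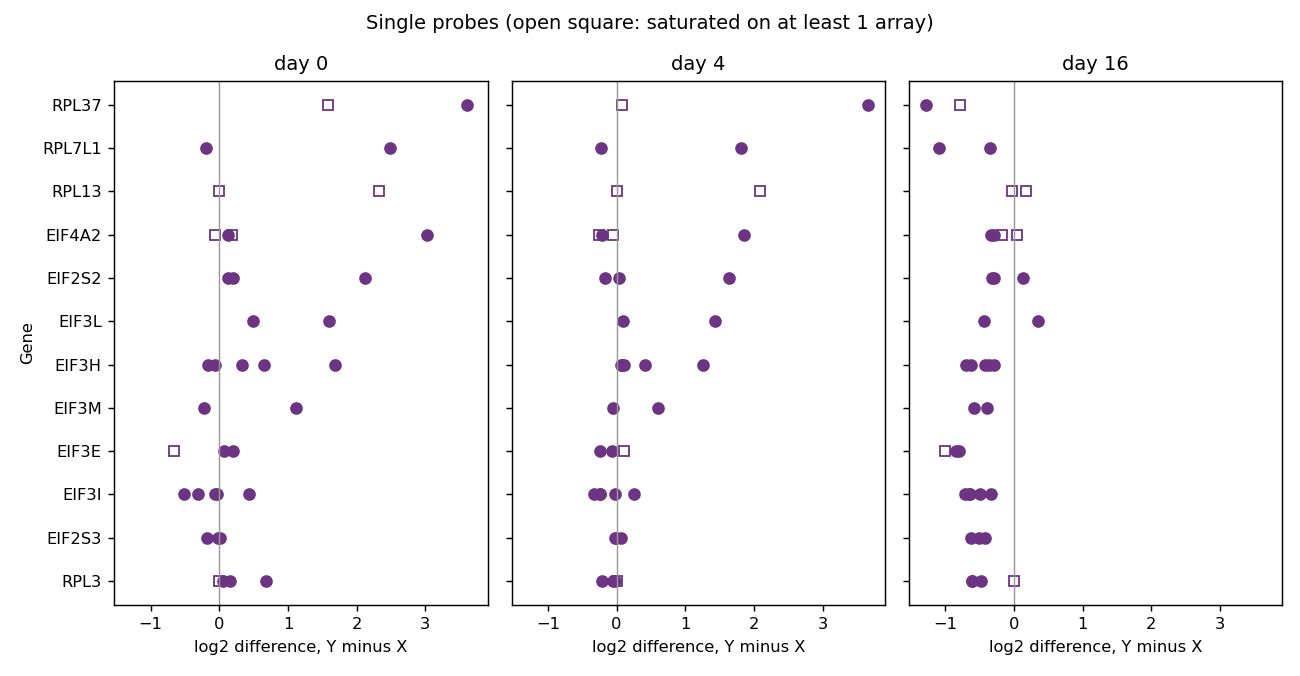
Log2 difference of line Y minus line X (x axis) for each probe above background of 12 members at days 0, 4, and 16, with open squares for probes saturated on at least 1 array. At days 0 and 4 1 probe lies far to the right of the others in the upper genes (3.02 for EIF4A2 at day 0), and at day 16 the probes of a gene lie close together at or left of 0 for most genes.

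At day 16 most members called were lower in line Y, on probes that never saturated too. Of 60 members 14 were lower and 2 higher in line Y relative to line X (limma), while 14.6% of all features were lower and 18.6% higher (33.3% in either direction). The median log2 difference was -0.17 over the members and 0.02 over all features, and it was -0.14 over the ribosomal proteins and -0.18 over the translation factors. Among the translation factors 9 of 28 were lower and 2 higher, and among the ribosomal proteins, RPL7L1 included, 5 of 32 were lower. The 2 higher ones were the kinase EIF2AK1 and the methyltransferase EEF2KMT, and the methyltransferase EEF1AKMT1 was among the 9 lower ones. Scaling to the 75th percentile gave 30 lower and 2 higher, and 19 of the lower ones were ribosomal proteins, most of which have saturated spots. All 14 members lower under the deposited normalization were among the 30. With probes that never saturated, 15 of 36 members were lower and 2 higher, or 17 lower and 2 higher under the scaling. With the brightest probe of each gene 7 were lower and 2 higher. The median differences were then -0.02 over the ribosomal proteins, -0.01 over the translation factors and 0.03 over all features.

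Here the probes of a gene ran together. Of the 14 lower members 12 had at least 2 probes above background, 11 of these had all their probes below 0, and the exception was RPL3, a protein at the catalytic centre of the large subunit, through a probe with saturated spots. Among the 83 member probes above background and never saturated, 35 were lower and 4 higher, with a median difference of -0.33. Over all probes tested 15.5% were lower and 18.2% higher, with a median of 0.01. At day 0 the same 83 probes had been 20 higher and 3 lower, against 19% and 19.1% of all probes, and at day 4 13 higher and 3 lower, against 12.1% and 11.3%. Of the 24 genes with at least 2 such probes, 14 had all of them below 0 at day 16 and 1 had all above 0.

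The eIF3 subunits made up a large part of the lower members. Of the 6 measured, EIF3E, EIF3H, EIF3I and EIF3M were lower in line Y at day 16, EIF3J and EIF3L were not called, and the median difference was -0.48. EIF3E, a subunit of the scaffold's core, had 12.10, 12.89 and 13.11 in line Y and 13.19, 13.60 and 13.87 in line X. Every line Y pool was below every line X pool, and the difference was -0.88 ± 0.10 (SE), 1.84-fold lower (adjusted p = 7.51e-10, limma). Pools 23 and 24 of line Y were the lowest, and without both the difference was -0.69 (adjusted p = 9.5e-10).

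EIF3H, another core subunit, had 13.22, 13.48 and 13.62 in line Y and 13.71, 13.91 and 14.21 in line X at day 16, without overlap and 1.39-fold lower (adjusted p = 2.21e-08, limma). At day 0 its order had been the opposite by the mean of its probes, with 14.24, 14.29 and 14.39 in line Y and 13.64, 13.83 and 13.92 in line X. Of its 5 probes 1 differed by 1.68 on that day and the others by -0.17 to 0.65, 2 of them of opposite sign. Under the 75th percentile scaling EIF3H was not called at day 0 or day 4. EIF3I, the subunit built of WD repeats, had 12.69, 12.90 and 13.22 in line Y and 13.16, 13.50 and 13.61 in line X at day 16. Its pools overlapped at the edge, and it was 1.48-fold lower in line Y (adjusted p = 3.12e-10). EIF3M had 12.56, 12.72 and 12.91 in line Y and 12.86, 13.15 and 13.56 in line X, also with an overlap at the edge. The difference was 0.44 at day 0 and -0.49 at day 16. Under the 75th percentile scaling the same number of eIF3 subunits, 4, was lower at day 16, whereas at day 0 only 1 was higher in place of 3.

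**Figure D4:**
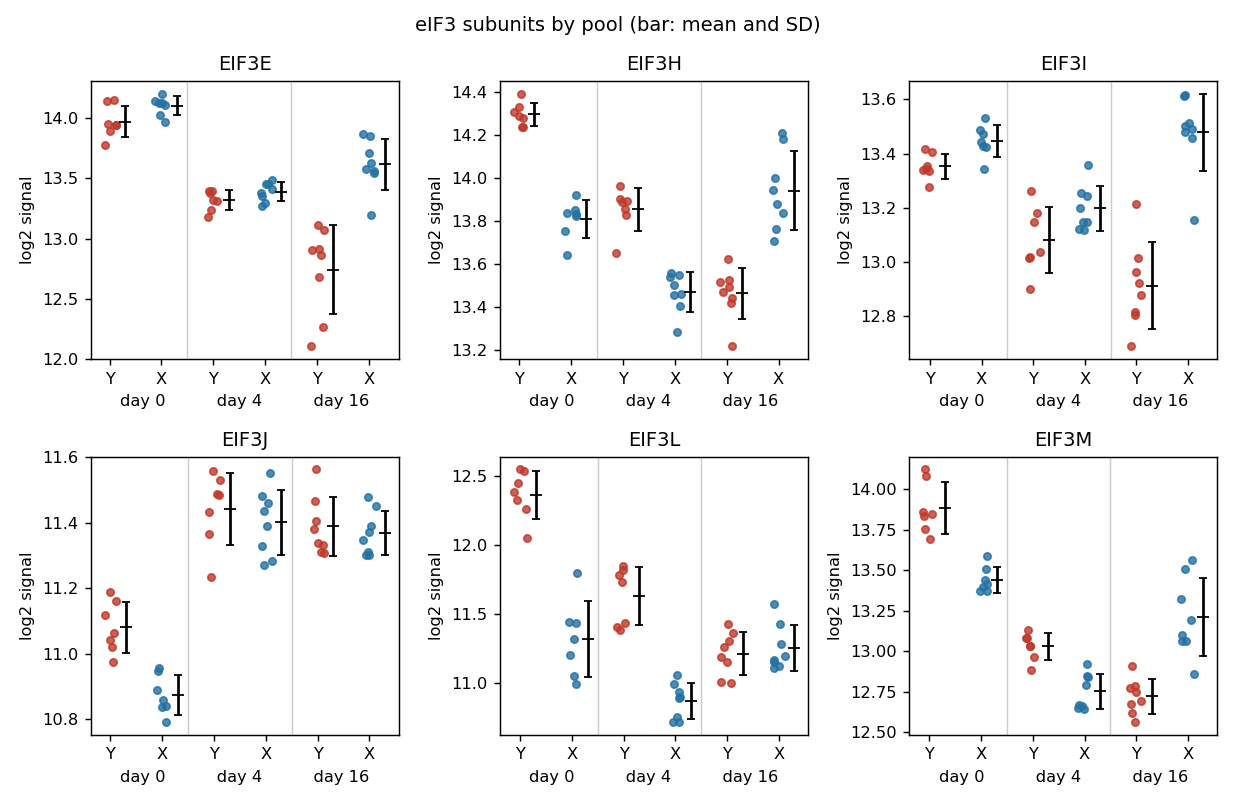
Log2 signal (y axis) of the 6 eIF3 subunits in each pool, line Y red and line X blue, with the mean and SD of each group beside the points. EIF3E, EIF3H, EIF3I and EIF3M lie lower in line Y at day 16, and EIF3H, EIF3L and EIF3M lie higher in line Y at day 0.

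Among the subunits of eIF2, EIF2S3, the gamma subunit that carries the initiator tRNA, was lower in line Y at day 16. It had 13.66, 13.88 and 13.96 in line Y and 14.13, 14.38 and 14.56 in line X, with no overlap and a 1.43-fold difference (adjusted p = 2.06e-08, limma). EIF2S1 and EIF2S2, the alpha and beta subunits, were not called on that day, with differences of -0.18 and -0.16. At day 0 they had been higher in line Y, by 0.53 (1.44-fold) and 0.82 (1.76-fold), and under the 75th percentile scaling EIF2S1 differed by 0.37, short of the fold threshold. EIF2AK1, the haem-regulated kinase of eIF2, was 1 of the 2 members higher in line Y at day 16. It read 11.68, 11.86 and 12.15 in line Y and 11.07, 11.23 and 11.48 in line X, all line Y pools above all line X pools, and the difference was 0.64 ± 0.09 (SE) or 1.55-fold (adjusted p = 1.18e-07). EIF2AK1 had only 1 probe above background, so agreement between probes could not be seen. The haemoglobin genes HBBA and HBAD were also higher in line Y on that day, by 0.64 and 0.49, while 3 of the 5 erythrocyte markers tested were not called. The part of red cells in the EIF2AK1 result was not tested.

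The methyltransferases that modify elongation factors moved in opposite directions at day 16. EEF2KMT, which methylates eEF2, had 8.91, 9.15 and 9.51 in line Y and 7.61, 8.18 and 8.45 in line X. Its pools did not overlap, and it was higher in line Y by 1.07 ± 0.11 (SE), 2.10-fold (adjusted p = 3.15e-11, limma). EEF1AKMT1, which methylates eEF1A, had 7.88, 8.55 and 8.72 in line Y and 9.06, 9.33 and 9.74 in line X. It was lower in line Y without overlap, by 1.80-fold (adjusted p = 7.22e-07), and its 3 probes gave -1.04, -0.79 and -0.72. By the mean of their probes the elongation factors were not called between lines on any day. EEF2, which moves the ribosome along, lay between 14.36 and 15.09 in all pools with part of its spots saturated. On its 2 probes that never saturated EEF2 was lower in line Y at day 4, by -0.39 (adjusted p = 0.0407, limma). At day 16 the difference on these probes was -0.47 (adjusted p = 0.00682), also past the fold threshold, and at day 0 it was 0.36 (adjusted p = 0.0525). EEF1A2, an isoform of the factor that delivers tRNAs, differed by -0.08 at day 0. The single probe of EEF1B2 did not pass the filter.

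Of the other initiation factors EIF1AX, which guides start codon choice, EIF6 and EIF5A2, an isoform of a factor that relieves stalled ribosomes, were lower in line Y at day 16. EIF6 had 12.04, 12.24 and 12.39 in line Y and 12.41, 12.68 and 12.93 in line X, without overlap (1.37-fold lower, adjusted p = 3.98e-07, limma). EIF1AX, with only 1 probe above background, was 1.34-fold lower (adjusted p = 2.66e-05) and EIF5A2 1.40-fold (adjusted p = 0.000228). EIF1, EIF2A, EIF2D, EIF5 and EIF5B were not called between lines on any day by the mean of their probes. The 1 probe of EIF1 that never saturated was lower in line Y at day 4, by -0.38 (adjusted p = 0.0136, limma).

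Among the ribosomal proteins RPL37, RPL7L1, RPL6, RPL3 and RPS6 were lower in line Y at day 16. RPL37 had 8.15, 8.74 and 9.11 in line Y and 9.15, 9.32 and 9.51 in line X, which is the reverse of its order at days 0 and 4, and was 1.54-fold lower (adjusted p = 7.98e-05, limma). RPL6 had 13.35, 15.25 and 15.41 in line Y and 15.48, 15.62 and 15.71 in line X, with pool 23 of line Y far below the rest. RPS6, the ribosomal protein phosphorylated by the S6 kinases, had 13.58, 15.80 and 16.00 in line Y and 15.89, 15.99 and 16.00 in line X. Its low values were those of pools 24 and 23 of line Y, 13.58 and 14.11, and 3 of the 8 line Y and 7 of the 8 line X spots were saturated.

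Both calls rested on these 2 pools. Without pools 23 and 24 of line Y, RPS6 differed by -0.15 (adjusted p = 0.0315, limma) and RPL6 by -0.32 (adjusted p = 0.00136), both short of the fold threshold, against -0.65 (adjusted p = 0.00512) and -0.62 (adjusted p = 0.000964) with all pools. The count of lower members was then 12 in place of 14, with 2 higher as before. These pools had 22 and 18 saturated member probes, at median raw intensities of 121.5 and 110.

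**Figure D5:**
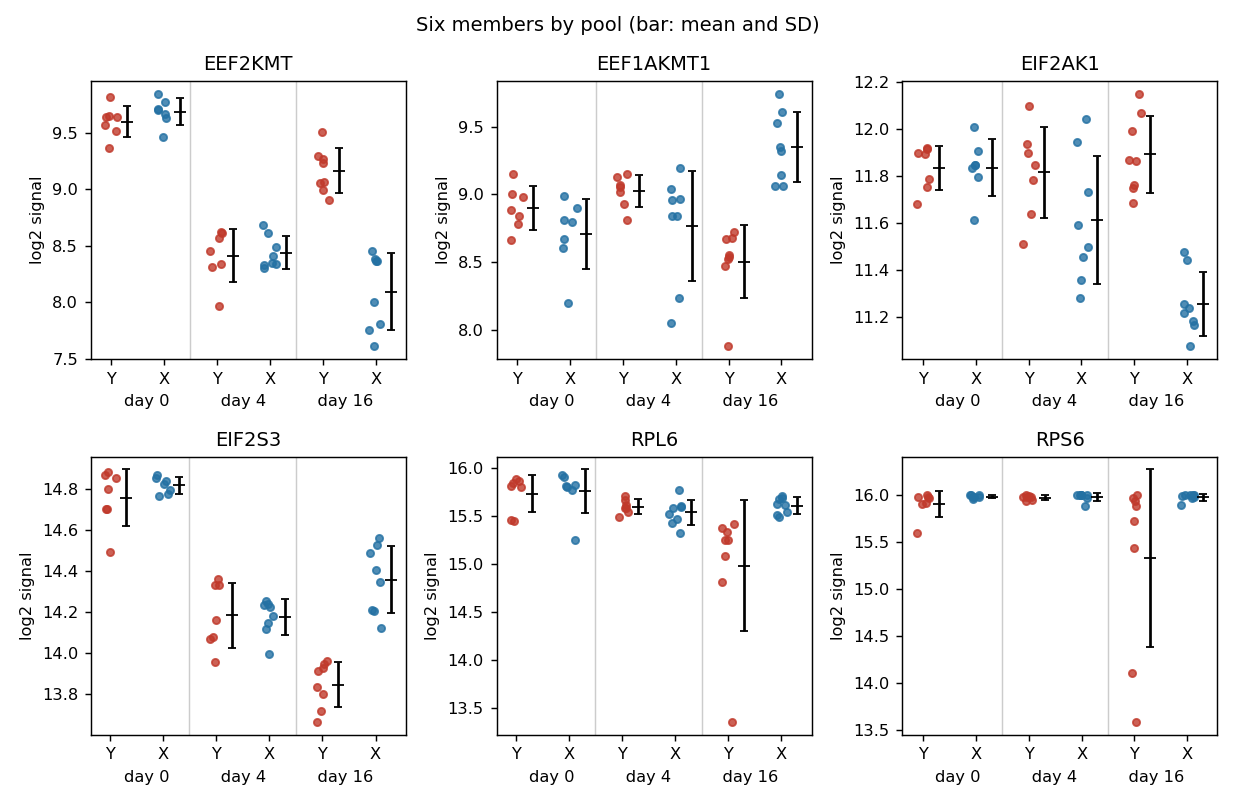
Log2 signal (y axis) of 6 members in each pool, line Y red and line X blue, with the mean and SD of each group beside the points. At day 16 EEF2KMT and EIF2AK1 lie higher and EEF1AKMT1 and EIF2S3 lower in line Y without overlap, whereas RPL6 and RPS6 have a few low line Y pools.

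Between days 0 and 4 more members fell than rose in both lines, but in each line the balance turned under another setting. In line Y 2 members rose and 10 fell (limma), against 18.2% and 24.3% of all features (42.5% in either direction). In line X 9 rose and 11 fell, against 25% and 26.7% (51.7%). The shares called stood below these backgrounds, a difference that was not tested. Of the 27 members tested with no saturated spot, 8 rose and 6 fell in line X (29.6% and 22.2%). In line Y 2 of them rose and 6 fell (7.41% and 22.2%). Of the 33 members with a saturated spot, 1 rose and 5 fell in line X, and 0 rose and 4 fell in line Y. The line Y balance under that scaling was 16 higher and 6 lower, with 13 ribosomal proteins among the higher ones, and on never saturated probes it was 3 higher and 6 lower, against 2 and 10 under the deposited normalization. In line X never saturated probes gave 10 higher and 7 lower, and 8 and 7 under the scaling.

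EEF2KMT fell in both lines. In line Y its day 4 values were 7.97, 8.45 and 8.63, against 9.37, 9.64 and 9.81 on day 0. In line X the day 4 values were 8.30, 8.38 and 8.69, against 9.46, 9.70 and 9.85 on day 0. Days did not overlap in either line, and the falls were 2.27-fold in line Y (adjusted p = 3.72e-12, limma) and 2.37-fold in line X (adjusted p = 2.27e-13). EIF3E and EIF3M, EIF3L and EIF2S3 also fell in both lines. EIF3M fell by 1.81-fold in line Y (adjusted p = 2.27e-12) and 1.61-fold in line X (adjusted p = 1.84e-10), and EIF3E by 1.57-fold and 1.64-fold in lines Y and X. EEF1A2 fell by 1.46-fold in line Y (adjusted p = 0.000349) and 1.37-fold in line X (adjusted p = 0.00143).

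EIF2S2 rose in both lines, by 0.41 in line Y and by 0.73, or 1.66-fold, in line X (adjusted p = 8.13e-14, limma). EIF1AX rose by 1.36-fold in line Y (adjusted p = 2.64e-05). In line X EIF4G2, a relative of the eIF4G scaffold, rose by 1.5-fold (adjusted p = 9.15e-09), and there were rises too in EIF3J, EIF2S1, EIF2B2, EIF2D, EIF5, EIF1 and RPL7L1. EIF4G2 read 11.90, 12.17 and 12.30 on day 4 in line X, against 11.41, 11.59 and 11.77 on day 0, without overlap. RPL22 and RPL39L fell in both lines, and RPS10 and RPL37A were among those that fell in line X. Apart from RPL37A, each of these had a probe saturated on most day 0 arrays. In line Y that probe of RPL39L was saturated on every day 0 array, and it fell by at least 1.51-fold. The falls of RPL22 and RPS10, and that of RPL39L in line X, are no strict bounds. Under the 75th percentile scaling the line Y falls of RPL22 (-0.05) and RPL39L (-0.25) were not called, and on its never saturated probe RPL39L changed by -0.19 in line X and was not called.

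From day 4 to day 16 the members called mostly fell in line Y and all rose in line X under the deposited normalization. In line Y 1 member rose and 12 fell (limma), against 14.2% and 15.9% of all features (30.1% in either direction). In line X 8 rose and 0 fell (limma), against 14.1% and 20.7% of all features (34.8%), where 22 were higher and 7 lower at an unadjusted p under 0.05. The share of members that rose in line X, 13.3%, was thus close to that of all features. The share that fell in line Y was 20%, against 15.9%, a difference that was not tested. Without pools 23 and 24 of line Y at day 16, 8 of 60 members fell in place of 12, and 1 rose as before. The 75th percentile scaling gave 1 higher and 7 lower in line Y, and 32 higher and 0 lower in line X (25 of them ribosomal proteins), and 11 higher and 0 lower on never saturated probes. With the brightest probe of each gene line X had 2 higher and 3 lower, and line Y 1 higher and 7 lower.

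The falls of line Y included those of RPL37 (1.97-fold, adjusted p = 7.57e-08, limma), RPL7L1, RPL6, RPS6, EIF3E, EIF3H, EIF3L, EEF1AKMT1, EIF5A2, EIF2B2, a subunit of the exchange factor of eIF2, and EIF2S1. Those of RPS6 and RPL6 were among the falls no longer called without pools 23 and 24 of line Y. The rises of line X were in RPL37 (2.81-fold, adjusted p = 3.93e-13), RPL7L1 (1.88-fold, adjusted p = 2.04e-05), RPL13 (1.78-fold, adjusted p = 1.69e-17, limma), EEF1AKMT1, EIF3H, EIF3M, EIF4A2 and EIF3L. RPL13, RPL37 and EIF4A2 are among the genes whose single probe was low in line X until day 4. EIF3H read 13.22, 13.48 and 13.62 in line Y on day 16, against 13.65, 13.89 and 13.96 on day 4. In line X it read 13.71, 13.91 and 14.21 on day 16, against 13.28, 13.48 and 13.56 on day 4. By the mean of its probes EIF3H thus fell in line Y and rose in line X, without overlap between the days in either line. Its fall in line Y was not called under the 75th percentile scaling. EEF2KMT was the 1 member that rose in line Y, by 0.75 (1.68-fold, adjusted p = 2.45e-07), and it was not called in line X at -0.35.

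The change of the line difference between days was tested directly as the difference of the differences. From day 4 to day 16, 18 of 60 members shifted down and 2 up in line Y relative to line X (limma), against 14.7% and 20.6% of all features (35.2% in either direction). The median shift was -0.18 over members and 0.05 over all features. It was down for 5 of 6 eIF3 subunits, with a median of -0.78, and for all 3 eIF2 subunits. The day 4 differences of EIF3L and EIF2S2, from which these 2 genes shifted, were each carried by a single probe. EIF3H shifted by -0.86 ± 0.09 (SE, adjusted p = 2.53e-10) and EEF1AKMT1 by -1.11 ± 0.19 (adjusted p = 7.56e-06). RPL37 shifted by -2.47 ± 0.18 (adjusted p = 4.51e-14) and RPL7L1 by -1.51 ± 0.25 (adjusted p = 4.3e-06), neither of them called on the brightest probe (-0.87, adjusted p = 0.168, and -0.12, adjusted p = 0.367, limma). EEF2KMT moved up by 1.1 ± 0.15 (adjusted p = 1.59e-07) and EIF2AK1 by 0.43 ± 0.13 (adjusted p = 0.00585). Of the 83 never saturated probes 32 shifted down and 5 up, against 14.8% and 20.1% of all probes. The scaling gave 29 down and 2 up, of which 16 of the 18 and both members moving up were shared, and the 3 eIF2 and 5 eIF3 shifts held in number. With the brightest probe of each gene 8 members shifted down and 3 up. The median shift was then -0.08 over the translation factors, -0.01 over the ribosomal proteins and 0.07 over all features.

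From day 0 to day 4 the line difference changed for 3 members, against 20.8% of all features. EIF4A3 moved up by 0.45 ± 0.16 (SE, adjusted p = 0.0301, limma), 8.83% of all features doing so, and RPL37 and EIF4A2 moved down by -0.60 ± 0.19 (adjusted p = 0.0192) and -0.48 ± 0.08 (adjusted p = 9.31e-05), 12% of all features doing so. Neither downward change was called under the 75th percentile scaling (-0.55, adjusted p = 0.0668, for RPL37 and -0.12, adjusted p = 0.243, for EIF4A2, limma). By the mean of its never saturated probes RPL37 moved by -0.15 (adjusted p = 0.639, limma). That mean includes the probe that was not well above background in line X at days 0 and 4. Under the 75th percentile scaling 16 members moved up and 2 down, 15 of the upward ones ribosomal proteins. On never saturated probes the split was 2 up and 3 down under the scaling and 1 up and 4 down under the deposited normalization.

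Other genes of the translation machinery, from lists of names, were counted in the same way, and no list was tested as a set. Of all features 18.2% were higher and 19.3% lower in line Y at day 0. The shares were 12.1% and 11% at day 4, and 18.6% and 14.6% at day 16. Of the 4 ribosomal proteins outside the naming rule 0 were called between lines (limma), and at an unadjusted p under 0.05 2 were lower in line Y at day 0, 1 at day 4 and 0 at day 16. Among 26 ribosome biogenesis genes 2 were higher and 2 lower in line Y at day 0. On day 4 the split was 1 higher and 1 lower, and on day 16 it was 0 higher and 2 lower. Between days 0 and 4, 8 of the 26 fell and 3 rose in line Y (30.8% and 11.5%), against 24.3% and 18.2% of all features. In line X 6 fell and 2 rose (23.1% and 7.7%), against 26.7% and 25%. The list medians were 0.04 in line Y and -0.03 in line X. Among those that fell were NPM1, DKC1 and NCL, which act in the nucleolus, in line Y by -0.96, -0.79 and -0.75, and NPM1 and DKC1 in line X by -0.97 and -0.89. GTPBP4, a nucleolar GTPase for the large subunit, was 2.26-fold higher in line Y at day 0 (adjusted p = 3.84e-12) and 2.25-fold at day 4 (adjusted p = 3.13e-12, limma).

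Of 12 cytosolic aminoacyl-tRNA synthetases 3 were higher and 0 lower in line Y at day 0, and on each later day 2 were higher and 1 lower. DARS, which charges aspartate tRNA, differed by 4.34, 3.48 and 1.80 on the log2 scale on these days, line Y being the higher one. In line X 7 of the 12 rose between days 0 and 4, CARS by 1.24, against 25% of all features. Of 12 factors of termination, poly(A) binding and signalling 3 were lower at day 16, among them ABCE1, which recycles ribosomes, by -0.59. Of 21 mitochondrial ribosomal proteins 6 were lower and 1 higher in line Y at day 16, and 4 were higher and 0 lower at day 0. These are shares of 28.6% lower at day 16, against 14.6% of all features, and 19% higher at day 0, close to the 18.2% of all features. Their line difference shifted down from day 4 to day 16 for 8 of 21 (38.1%) and up for 1, against 14.7% and 20.6% of all features.

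Markers of the cell types in the tissue moved between groups as well. At day 16 14.6% of all features were lower and 18.6% higher in line Y. The enterocyte markers were detected, and 4 of 9 were lower in line Y at day 16 (MTTP by -1.0, APOB by -0.77 and SLC15A1 by -0.55). The mean log2 level of the enterocyte markers was 12.55 to 12.84 in line Y and 12.75 to 13.19 in line X. It includes VIL1, FABP2 and APOA1, which lay near the highest value of 16.0 and could show little difference. FABP2 averaged 15.95 in line Y and 15.69 in line X and was not called. Smooth muscle markers were higher in line Y on that day for 3 of 5, at 12.67 to 13.44 in line Y and 12.34 to 13.05 in line X, and 2 of 10 proliferation markers were higher, at 9.65 to 10.08 in line Y and 9.41 to 9.92 in line X. Of 5 lymphocyte markers 1 was lower, at 9.36 to 9.61 in line Y and 9.54 to 9.84 in line X. Their part in the lower members of day 16 was not tested.

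At day 0 4 of 10 proliferation markers and 4 of 5 erythrocyte markers were higher in line Y, and 3 of 5 lymphocyte markers were lower. Of all features 18.2% were higher and 19.3% lower on that day. Proliferation markers lay at 9.58 to 9.98 in line Y and 9.05 to 9.72 in line X, erythrocyte markers at 10.75 to 11.83 in line Y and 10.07 to 10.75 in line X, and lymphocyte markers at 6.57 to 6.98 in line Y and 6.79 to 7.33 in line X. Erythrocyte markers rose for 5 of 5 genes from day 0 to day 4 in both lines and fell for 5 of 5 to day 16. From day 4 to day 16 smooth muscle markers also fell for 5 of 5 and lymphocyte markers rose for 5 of 5 in both lines. Of all features 18.2% rose to day 4 in line Y and 25% in line X. From day 4 to day 16 14.2% rose and 15.9% fell in line Y, and 14.1% and 20.7% in line X. Of the liver and pancreas lists 3 genes each were tested, with medians between 6.06 and 7.32 in all groups. The liver marker TTR, which carries thyroid hormone, stood above these at 11.25 ± 0.53 in line Y and 11.50 ± 0.64 in line X at day 0 (SD, n = 7 each) and averaged 6.58 in line Y and 6.34 in line X at day 16. TTR was not called between lines. FGG, another liver marker tested, ran the other way over the days. It averaged 3.93, 4.79 and 8.23 in line Y and 4.44, 5.28 and 8.30 in line X on days 0, 4, and 16. From day 4 to day 16, 1 of the 3 liver markers rose and 1 fell in each line. Of the 3 pancreas markers 2 were lower in line Y at day 16, AMY1A by -0.48 and CPA5 by -0.47, and 2 of 3 were higher at day 16 than at day 4 in each line. Their part in the members' differences was not tested.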

How the data were processed

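Jejunal RNA of pooled birds was labelled with Cy3 and hybridized to 1-colour Agilent arrays. The authors deposited scanner output, with raw intensity of each spot and its local background, and a table of log2 values. Per their methods, these log2 values were made with limma (R version 3.0.2 in the submitters' processing notes) by correcting background with normexp (offset 1), normalizing between arrays by quantiles and averaging duplicate spots. Recomputation from the intensities gave the deposited log2 values to within 5e-09. Spots of 56 control types were left out, and spots marked as outliers made up 0.0261%. No deposited column was left without a sample.

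Gene symbols came from the RefSeq accession of a probe and a RefSeq table of assembly GRCg7b, used for names only, since the scanner files hold no gene name. A gene was the mean of its probes, and a probe without a symbol stood alone. Kept probes had, on all arrays of 1 group or more, a log2 value above 1.1 times that of the brightest dark corner spot. The 6 groups were fitted together (lmFit and eBayes, limma 3.58.1, R 4.3.3), with 9 contrasts, and p-values were adjusted by Benjamini-Hochberg over 21443 features. A call needed an adjusted p under 0.05 and a fold change over 1.3. The fold of a probe saturated in the brighter group only is a lower bound. Where both groups are saturated, as for the 13 member probes saturated on all arrays, the fold has no bound. A bound was taken from the mean of normalized log2 values of the bright group, with a saturated spot at its value. Figures were drawn with matplotlib version 3.10.9. The fit was tested on simulated data.

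Members and lists were chosen with earlier results of these data known. Genes named by rule were the 3 members called with the largest rise and fall per contrast between lines or neighbouring days, the 2 largest in each direction of the change of the line difference, the elongation factors, the kinases and inhibitors of translation, RPS6, EIF4E and the 5 members with most saturated spots. Other members named were chosen after their values were seen, and some members are counted but not reported by name here. Genes outside the members were named, at most 3 per list and contrast, by largest call.

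Pools with equal numbers in lines Y and X shared a slide position, and nothing in the labels says that they share birds, so the number is no pairing by design. Deviations of such pools from their group means correlated at over 0.1 in 7 of 7 pairs at day 4 (0.109 to 0.253), in 4 of 7 at day 0 and in 3 of 8 at day 16. Pool number and slide position were therefore tried as blocks. Other alternatives were the brightest, the median or the never saturated probes of a gene, the filter, scaling to the 75th percentile of the processed signal, a normexp offset of 50, other fold thresholds, the 2 groups alone, and each pool left out. Within groups, arrays correlated at 0.973 to 0.994, and their number limits the precision.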

Additional observations from a re-analysis of the deposited data

Results flagged for a closer look

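Single pools lay far from the rest of their group in 21 of 162 groups of a gene or a median over genes. Chance gives about 1 in 20 only for independent, normally spread values. Here genes share the same arrays and several lie near saturation, so that rate does not apply. Several concern line Y at day 16. RPL6 was 13.35 in pool 23, against 14.81 to 15.41 in the other pools, EEF1A2 was 10.35 in pool 23, against 9.59 to 9.95, EEF1AKMT1 was 7.88 in pool 17, against 8.47 to 8.72, and RPL36 was 15.85 in pool 17, where both probes were saturated. The median over the ribosomal proteins was 15.44 in pool 24, against 15.60 to 15.73 in the other pools of that group.

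At line Y day 0, EEF2 (15.09) and EIF4G2 (11.94) were high in pool 4 and RPS6 (15.60) was low in pool 8. At line Y day 4, RPL7A was low in pool 9 (15.65) and RPL7L1 in pool 15 (10.05). In line X at day 0, RPL6 (15.25) and RPL9 (15.36) were low in pool 2, RPL7L1 (8.66) in pool 5 and RPL7A (15.94) in pool 8. In line X at day 4, RPL13 was low in pool 15 (14.66) and RPS6 in pool 10 (15.89), and at day 16 EIF1AX was low in pool 22 (11.75) and RPS6 in pool 23 (15.89). Values near 16 are saturated or close to it. The dim probe of EEF1B2 was high in line Y day 0 pool 8 (6.14), line X day 4 pool 15 (5.35) and line Y day 16 pool 24 (6.40).

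The change between days differed between the lines, by the test of the difference itself, for EIF4A3 (0.45), RPL37 (-0.60) and EIF4A2 (-0.48) from day 0 to day 4, and for EEF2KMT (1.1), EIF2AK1 (0.43), RPL37 (-2.47) and RPL7L1 (-1.51) from day 4 to day 16, each a log2 value for line Y with that of line X subtracted (limma). The values of RPL37 and EIF4A2 to day 4 were not called under the 75th percentile scaling.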

How the results depend on the processing

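A fold over 2 moved 9 of the 9 main counts by over 1.5 times, no fold threshold 7, scaling to the 75th percentile 7, the brightest probe of a gene 6 and probes with no saturated spot 1. With the brightest probe of a gene, members called numbered 6 at day 0, 4 at day 4 and 9 at day 16 between lines, 8 and 5 from day 4 to day 16 in lines Y and X, and 11 for the change of the line difference from day 4 to day 16. RPL13 then differed by -0.0046 at day 0 and -0.0073 from day 4 to day 16 in line X, and RPL7L1 by -0.20 at day 0 and -0.22 at day 4, all against the direction of the probe mean. Of the 41 values of named genes 15 more kept their direction and were no longer called, among them RPL37 at day 4 (0.09, adjusted p = 0.881, limma) and from day 4 to day 16 in lines Y (-0.49) and X (0.37), RPL13 at day 4 (0.01), RPL6 from day 4 to day 16 in line Y (-0.01), RPL7L1 from day 4 to day 16 in line X (0.05), and EIF4A3 and EIF4A2 in the change of the line difference to day 4 (0.18 and -0.18). The balance was then 3 higher and 3 lower at day 0 and 2 higher and 3 lower from day 4 to day 16 in line X. With the median of probes the shift of RPL37 from day 0 to day 4 was 0.063. Probes with no saturated spot gave 5 members for the change of the line difference from day 0 to day 4. Scaling to the 75th percentile gave 31 at day 0 and 32 at day 16 between lines, 22 in line Y from day 0 to day 4, 8 and 32 from day 4 to day 16 in lines Y and X, and 18 and 31 for the changes of the line difference. The same scaling on never saturated probes gave 7 in line Y from day 4 to day 16 and 5 for the change of the line difference from day 0 to day 4. The cause was not tested.

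Without a fold threshold the counts were 20, 16 and 34 between lines at days 0, 4, and 16, 29 and 27 for the days in line Y, 24 from day 4 to day 16 in line X, and 6 for the change of the line difference to day 4. With a fold over 2 they were 4, 2 and 1 between lines, 1 and 0 in line Y, 1 and 1 in line X, and 0 and 4 for the changes of the line difference. Leaving out each pool in turn gave 10 to 11, 7 to 9 and 16 to 19 between lines, 12 to 15 and 11 to 15 in line Y, 18 to 21 and 7 to 11 in line X, and 3 to 5 and 19 to 22 for the changes of the line difference, with 5 without line X day 0 pool 4. EIF4A3 lost its change to day 4 without line Y day 0 pool 4, and EIF2AK1 its change to day 16 without line X day 4 pool 10 or without line Y pools 23 and 24 (0.37, adjusted p = 0.0205, limma).

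With pool number as a replicate block the counts were 10, 9 and 16 between lines and 3 and 19 for the changes of the line difference, so that the block moved no other count. The other settings, slide position as a block included, kept every count within 1.5 times its value. The normexp correction with an offset of 50 was run on the median signal, since the mean signal named for it was not used here. Saturated spots limit bright ribosomal proteins to bounds, or leave no bound where both groups are saturated. Dim probes near the dark corner spots, such as that of EEF1B2, have little signal over background.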
